A study of Mus musculus with 8 samples.

Results

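The constitutive androstane receptor (CAR, encoded by Nr1i3) and the pregnane X receptor (PXR, encoded by Nr1i2) are nuclear receptors of the liver that sense drugs, steroids, bile acids and other lipophilic compounds. Each pairs with the retinoid X receptor, binds repeated DNA half-sites and raises the transcription of cytochrome P450 (P450) genes. Among these are Cyp2b10, a classical target of CAR, and Cyp3a11, a classical target of PXR. P450 enzymes oxidize foreign and endogenous compounds with electrons that P450 oxidoreductase (POR, encoded by Por) passes on from NADPH. The genes described here are the 7 genes Nr1i3, Nr1i2, Cyp2b9, Cyp2b10, Cyp2b13, Cyp3a11 and Por, and every probe set that the platform annotation assigns to 1 of these symbols alone was taken. Of the 7 genes, 6 were measured, on 9 of 45037 probe sets, and these 6 stand among 18193 genes with such a probe set. No probe set carried Por as its only symbol in the annotation used, and Por was not analysed here.

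Livers of 8 male KK-Ay mice, an obese type 2 diabetes model, were compared at 14 weeks of age, with 1 Affymetrix GeneChip array per mouse. The 4 PD mice had been fed the AIN93G diet supplemented with persimmon peel (PP) extract at 1 g per kg for 8 weeks, and the 4 CD mice had eaten the AIN93G diet alone. All mice shared the KK-Ay background, were housed singly and were fasted briefly before the liver was taken, and the livers came from mice whose plasma ketone bodies lay near their group's average. The extract is a fat-soluble mixture, and no mice given a known activator of CAR or PXR were part of the samples used here. All values below are log2 model-based expression indices, so that a difference of 1 is a doubling, and the depth of an array has no counterpart in read counts. The number of arrays limits the precision. The medians of the arrays ranged over 7.09 to 7.16, and any pair of arrays correlated at 0.991 to 0.996. The mean over 8 hepatocyte markers was 13.7 to 13.8 in PD livers and 13.7 to 13.8 in CD livers, and 0 of these markers passed the rank product.

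The Cyp2b genes share much of their sequence, and their promoter sequences show how close they are there. Transcript and probe sequences were not compared, so whether the probe sets of Cyp2b9, Cyp2b10 and Cyp2b13 share signal was not tested. In RefSeq, Cyp2b10 (chr7:25897658-25926624), Cyp2b13 (chr7:26061388-26096197) and Cyp2b9 (chr7:26173350-26210661) lie within 313 kb of chromosome 7, and Cyp3a11 is at chr5:145854607-145879854 (GRCm38.p6). A RefSeq promoter window of 250 bases was taken for each gene. Its first 143 bases are shown for the 4 P450 genes, 5′ to 3′ on the strand of the gene. They lie at chr7:26173159-26173301 (+) for Cyp2b9, chr7:25897408-25897550 (+) for Cyp2b10, chr7:26061245-26061387 (+) for Cyp2b13 and chr5:145879962-145880104 (−) for Cyp3a11. The windows of Cyp2b9 and Cyp2b13 run past the gene starts given above. Capitals mark matches, on either strand, to AGGTCA or AGTTCA, the half-sites that nuclear receptors of this class bind, and no matches overlapped.
Cyp2b9: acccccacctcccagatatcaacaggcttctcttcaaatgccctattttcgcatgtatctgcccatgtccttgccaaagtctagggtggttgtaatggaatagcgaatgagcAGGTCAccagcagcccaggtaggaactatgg
Cyp2b13: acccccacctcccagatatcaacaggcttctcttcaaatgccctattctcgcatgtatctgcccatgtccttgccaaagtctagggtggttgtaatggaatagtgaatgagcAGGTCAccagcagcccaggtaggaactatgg
Cyp2b10: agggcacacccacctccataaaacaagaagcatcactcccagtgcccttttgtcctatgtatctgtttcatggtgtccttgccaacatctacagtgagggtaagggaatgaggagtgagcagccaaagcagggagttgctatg
Cyp3a11: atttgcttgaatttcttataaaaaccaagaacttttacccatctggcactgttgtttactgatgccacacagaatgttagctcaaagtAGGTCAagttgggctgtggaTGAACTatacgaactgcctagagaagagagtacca

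The stretches of Cyp2b9 and Cyp2b13 were identical at 141 of 143 bases (98.6%), and differed by T48C and C104T, with the base of Cyp2b9 first and positions counted from the 5′ end of the stretch. Over the whole windows of 250 bases, Cyp2b10 matched either of them at 182 of 260 alignment columns (70%). In these 250 bases Cyp2b9 and Cyp2b13 each held 1 AGGTCA, and Cyp3a11 held 1 AGGTCA and 1 AGTTCA, the second on the opposite strand. The windows of Cyp2b10, Nr1i3, Nr1i2 and Por held neither. Those of Nr1i3 and Nr1i2 reach into the annotated gene, and that of Por (chr5:135688895-135689144) lies inside it. Of 32851 RefSeq windows of the same length, 14% held AGGTCA, 11.8% held AGTTCA and 24.2% held either. A match in letters is a description and not a bound site. Sequence outside the 250 bases was not searched, so sites there, for Cyp2b10 as for the other genes, would not be seen.

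The question was whether the mRNAs of CAR, PXR and these P450 enzymes differed between PD and CD mice. Of the 9 probe sets, the rank product, which ranks PD to CD ratios in each of 16 array pairings, called 1 higher in PD mice (Cyp2b9) and 1 lower (a probe set of Cyp2b10), where a call means a false discovery rate (FDR) of less than 0.1. For all 45037 probe sets together, the calls came to 0.215% higher and 0.26% lower. In limma, which sets each difference against the spread between mice, 0 of the 9 passed an adjusted p under 0.1, as did 0 of all probe sets (0%), and the lowest adjusted p (limma) on the array was 0.998. Without adjustment 1 of the 9, a probe set of Nr1i2, had a p under 0.05, against 3.65% of all probe sets. The PD and CD mice overlapped on each of the 9 probe sets, whereas they did not overlap on 2.08% of all probe sets.

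**Figure D1:**
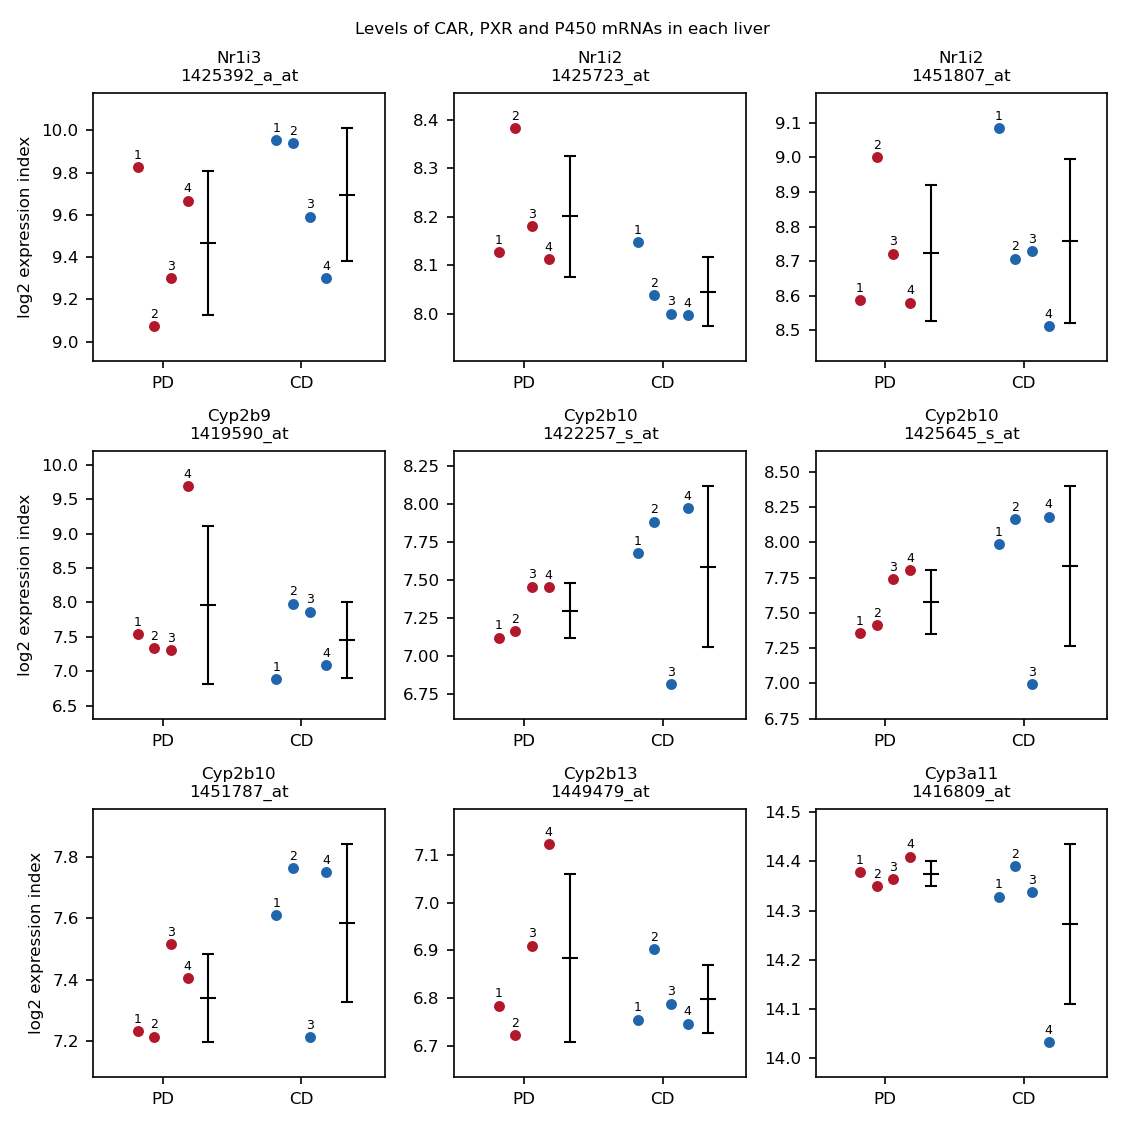
Log2 expression index of each liver (points, numbered by replicate) on the 9 probe sets of Nr1i3, Nr1i2, Cyp2b9, Cyp2b10, Cyp2b13 and Cyp3a11, PD mice in red and CD mice in blue, with the mean and SD (n = 4 each) in black. Axes differ between panels and do not start at 0. PD replicate 4 stands alone at 9.69 for Cyp2b9, and CD replicate 3 lies below the other CD mice on all 3 probe sets of Cyp2b10.

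Nr1i3, which encodes CAR, had values of 9.82, 9.07, 9.30 and 9.67 in PD mice 1 to 4, against 9.95, 9.94, 9.59 and 9.30 in CD mice 1 to 4. CD replicate 4 lay at the level of PD replicate 3, and PD replicate 1 lay above CD replicates 3 and 4, so that the groups overlapped over most of their range. The mean was 9.47 ± 0.34 in PD mice and 9.70 ± 0.31 in CD mice (SD, n = 4 each), a log2 difference of −0.23 with a 95% interval of −0.62 to 0.16 (limma; two-sided exact permutation test, p = 0.343). The rank product did not call it (FDR 0.257). Without PD replicate 1 the difference was −0.35 and was called (FDR 0.0504). It was −0.10 without PD replicate 2, −0.14 without CD replicate 1 and −0.36 without CD replicate 4, with no call.

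Nr1i2, which encodes PXR, was measured by 2 probe sets that differed in the sign of the difference. On 1425723_at the values were 8.13, 8.38, 8.18 and 8.11 in PD mice and 8.15, 8.04, 8.00 and 8.00 in CD mice. CD replicate 1 was the only CD mouse within the range of the PD mice. The means were 8.20 ± 0.12 and 8.05 ± 0.07 in PD and CD mice (SD, n = 4 each), a log2 difference of 0.15 with a 95% interval of 0.01 to 0.30 (limma, p = 0.0392 before and 0.998 after adjustment; exact permutation test, p = 0.0857). On 1451807_at, the brighter probe set, the values were 8.59, 9.0, 8.72 and 8.58 in PD mice and 9.08, 8.71, 8.73 and 8.51 in CD mice. Here CD replicate 1 was the highest and CD replicate 4 the lowest of the 8 mice. The log2 difference was −0.04 with a 95% interval of −0.31 to 0.23 (limma; exact permutation test, p = 0.743), and it took either sign when mice were left out in turn (−0.13 to 0.07). Both probe sets placed PD replicate 2 high, and across the 8 mice they correlated at r = 0.615 (rho = 0.595). Neither was called by the rank product.

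Cyp2b9, a P450 that is female-predominant in the liver of adult mice, had values of 7.54, 7.34, 7.30 and 9.69 in PD mice, against 6.88, 7.98, 7.87 and 7.09 in CD mice. PD replicate 4 lay more than 1 log2 unit above every other mouse, and the remaining PD mice fell within the range of the CD mice. The mean was 7.97 ± 1.15 in PD mice and 7.46 ± 0.55 in CD mice (SD, n = 4 each). The difference of 0.51 (1.42-fold) was called by the rank product (FDR 0.0281) and had a 95% interval of −0.55 to 1.57 in limma (exact permutation test, p = 0.6). The PD mice other than replicate 4 averaged 7.39 ± 0.13 (SD, n = 3), which gave a difference of −0.06 and no call (FDR 0.448). The call was also lost without CD replicate 1, at a difference of 0.32 (FDR 0.216), and held when any of the other 6 mice was left out.

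The spread of Cyp2b9 between mice of the same diet was among the largest on the array. Its pooled within-group SD of 0.90 exceeded that of 99.96% of probe sets, against a median of 0.08 over all of them, and the 8 mice spanned 6.98-fold. Among 8 other female-predominant genes with a probe set (Cyp2b13 left out), Cyp4a14 and Acot3 were called higher in PD mice, where 0.286% of all genes were, and 6 of the 8 were higher in PD mice by any margin, as were 8452 of all 18193 genes. Over these 8 genes the mean of PD replicate 4 lay 0.26 above the mean of the 8 mice, and without Cyp4a14 and Acot3 it lay 0.02 above. CD replicate 4 deviated further, by −0.34, and by −0.12 without Cyp4a14 and Acot3, where CD replicate 3 lay at −0.14. PD replicate 4 was the highest mouse for 1 of the 8, and PD replicate 2 and CD replicate 1 for 2 each. That 1 was Acot3, an acyl-CoA thioesterase, with 7.81, 7.1, 7.69 and 8.56 in PD mice and 7.17, 7.61, 7.18 and 7.13 in CD mice, and its call (0.52, FDR 0.00947) was lost without that liver (0.26, FDR 0.452). Of 10 male-predominant genes, PD replicate 4 was the lowest mouse for 3 and its mean deviated by −0.22. In that list Elovl3, a fatty acid elongase, was called lower in PD mice (−0.40, FDR 0.0521), the only 1 of the 10 called on its brighter probe set, where 0.357% of all genes were. A dimmer probe set of Serpina12 was called too (−0.43, FDR 0.0352), while its brighter one gave −0.15 (FDR 0.490) and no call. These calls held in 3 and 5 of the 8 runs that left out 1 mouse, and both were lost without PD replicate 4 (−0.33 and −0.31), CD replicate 1 (−0.25 and −0.31) or CD replicate 3 (−0.42 and −0.33). That of Elovl3 was lost also without PD replicate 2 (−0.23) or CD replicate 4 (−0.43). The part of sex-biased genes in the Cyp2b9 value of this liver was not tested. The study's methods give the mice as male.

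Cyp2b10, the P450 most used as a readout of CAR, was lower in PD mice on each of its 3 probe sets, and 1 of the 3 was called. On 1422257_s_at the values were 7.12, 7.17, 7.46 and 7.45 in PD mice, against 7.68, 7.88, 6.82 and 7.97 in CD mice. CD replicate 3 lay below all PD mice, and the other CD mice lay above all PD mice. The mean was 7.30 ± 0.18 in PD mice and 7.59 ± 0.53 in CD mice (SD, n = 4 each), a difference of −0.29 (FDR 0.0920) with a 95% interval of −0.76 to 0.18 (limma; exact permutation test, p = 0.343).

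The second probe set of Cyp2b10, 1425645_s_at, had 7.36, 7.41, 7.74 and 7.80 in PD mice and 7.99, 8.16, 7.00 and 8.18 in CD mice. Its difference was −0.25 with a 95% interval of −0.77 to 0.26 (limma) and an FDR of 0.102, just outside the threshold. On the third, 1451787_at, the values were 7.23, 7.21, 7.52 and 7.40 in PD mice and 7.61, 7.76, 7.21 and 7.75 in CD mice, with a difference of −0.24, a 95% interval of −0.50 to 0.02 (limma) and an FDR of 0.304. Each of the 3 probe sets ordered the CD mice with replicate 3 lowest and ranked PD replicates 1 and 2 below PD replicates 3 and 4. The 3 correlated with each other across the mice at r = 0.940 to 0.993. They are repeated readings of the same livers and not independent evidence, and probe sets with the suffix _s_at can detect several transcripts, so that a part of the signal from related Cyp2b genes cannot be told apart.

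The call of Cyp2b10 on 1422257_s_at depended on single mice of both groups. It was lost without CD replicate 1 (−0.26, FDR 0.382), CD replicate 2 (−0.19, FDR 0.565), CD replicate 4 (−0.16, FDR 0.530), PD replicate 1 (−0.23, FDR 0.104) or PD replicate 2 (−0.24, FDR 0.130). Without CD replicate 3 the difference was −0.54 (FDR 0.0672) and the remaining CD mice averaged 7.84 ± 0.15 (SD, n = 3). On 1425645_s_at the difference without CD replicate 3 was −0.53 (FDR 0.0712). With that mouse left out the groups did not overlap on any of the 3 probe sets, as on 2992 of all 45037, and this follows from its place below the PD mice, so that no test is given for it. No label sets CD replicate 3 apart from the other CD mice. Its liver had the highest mean of the 8 mice over the markers of stellate cells and fibroblasts (0.14 above the mean of the 8), endothelial cells (0.17) and Kupffer cells (0.21). CD replicate 4, the highest mouse for Cyp2b10 on 1422257_s_at, lay nearly as far above the mean for Kupffer cells (0.20). The part of these cell types in the Cyp2b10 value of CD replicate 3 was not tested.

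**Figure D2:**
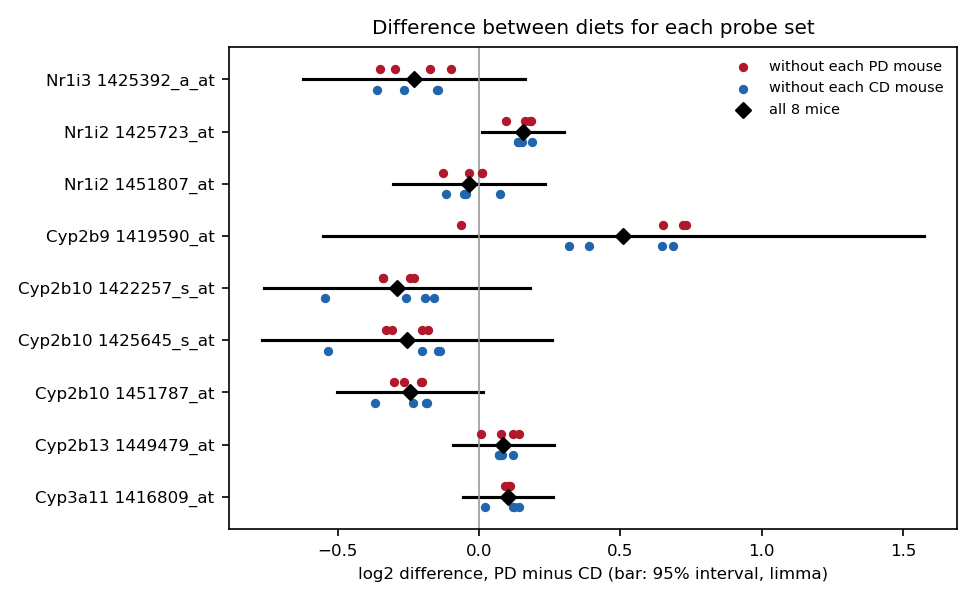
Log2 difference between the mean of PD and the mean of CD mice (x axis) for each probe set (y axis), with all 8 mice (black diamond, bar the 95% interval from limma) and without each mouse in turn (PD mice red, CD mice blue). The difference of Cyp2b9 is −0.06 without PD replicate 4, and that of Cyp2b10 stays below 0 on all 3 probe sets whichever mouse is left out.

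Cyp2b13, the near copy of Cyp2b9 and likewise female-predominant in mice, had values of 6.78, 6.72, 6.91 and 7.12 in PD mice and 6.76, 6.90, 6.79 and 6.75 in CD mice. PD replicate 4 was again the highest mouse, by a far smaller margin than for Cyp2b9. The difference was 0.09 with a 95% interval of −0.09 to 0.26 (limma; exact permutation test, p = 0.486), and the rank product did not call it. These values lay near or below the array medians, no detection call was used, and a change of a transcript present at a trace could be missed on this probe set.

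Cyp3a11, the main PXR-responsive CYP3A of mouse liver, had 14.38, 14.35, 14.36 and 14.41 in PD mice, against 14.33, 14.39, 14.34 and 14.03 in CD mice. CD replicate 4 was low, and the other 7 mice lay within 0.1 log2 units of each other. The mean was 14.38 ± 0.03 in PD mice and 14.27 ± 0.16 in CD mice (SD, n = 4 each), a difference of 0.10 with a 95% interval of −0.06 to 0.26 (limma; exact permutation test, p = 0.2). That interval spans 0.961- to 1.2-fold. Without CD replicate 4 the difference was 0.02. Without CD replicate 2 it was 0.14 and the groups did not overlap, as on 1700 of all 45037 probe sets with that mouse left out. The values are near the upper end of the array's scale, where a change in transcript level can be compressed.

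**Figure D3:**
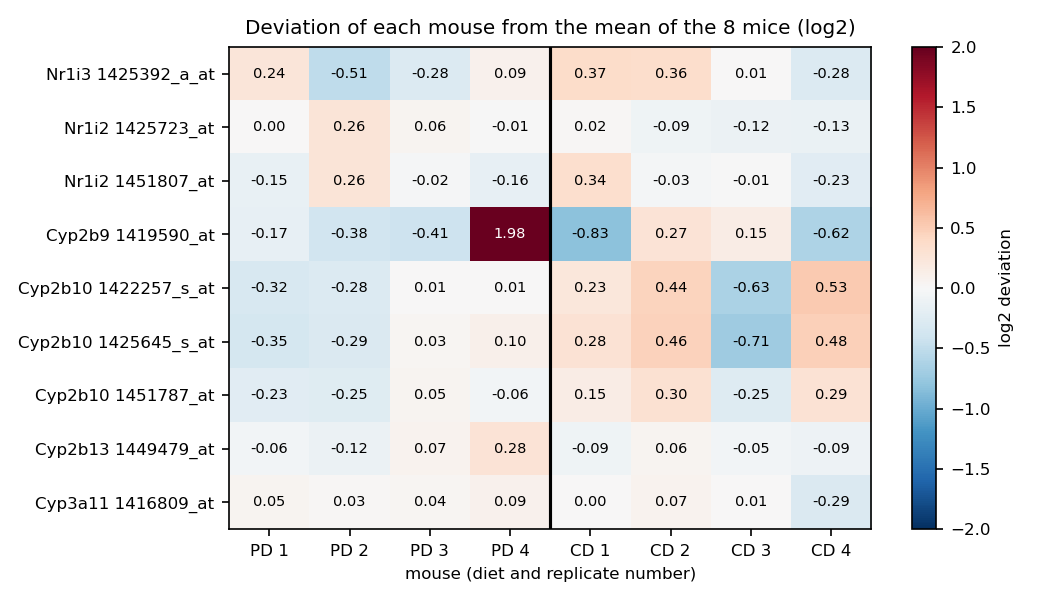
Deviation of each mouse (columns, PD mice left of the line and CD mice right of it) from the mean of the 8 mice on each probe set (rows), in log2 units, printed in each cell. PD replicate 4 is 1.98 above the mean for Cyp2b9 and 0.28 above it for Cyp2b13, and CD replicate 3 is below the mean on all 3 probe sets of Cyp2b10.

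Mice that were high for a receptor were not detectably those that were high for its targets. With 1 probe set per gene, 15 pairs of the 6 measured genes were correlated across the 8 mice, and 0 of the 15 passed a Benjamini-Hochberg adjusted p under 0.05. Nr1i3 and Cyp2b10 gave r = 0.198 (exact permutation test, p = 0.633, adjusted 0.871) and rho = 0.167 (p = 0.703, adjusted 0.806). Nr1i2 and Cyp3a11 gave r = 0.287 (exact permutation test, p = 0.515, adjusted 0.871) and rho = −0.29 (p = 0.501, adjusted 0.805). The r of Nr1i2 and Cyp3a11 turned to −0.77 without CD replicate 4. With the 2 mice farthest from the median of the receptor left out, the r was 0.377 for Nr1i3 with Cyp2b10 and 0.587 for Nr1i2 with Cyp3a11. With 8 mice a moderate relation would not be detected.

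The highest r was that of Cyp2b9 and Cyp2b13, at 0.880 (exact permutation test, p = 0.0156, adjusted 0.234), with rho = 0.619 (p = 0.115, adjusted 0.575). It was 0.866 with the diet means removed and 0.956 without PD replicate 3 (exact permutation test, adjusted p = 0.0536). The r was 0.411 without the 2 mice farthest from the median for Cyp2b9, which were PD replicate 4 and CD replicate 1. It was 0.480 without PD replicate 4 alone and 0.874 without CD replicate 1 alone, so that it rested mostly on PD replicate 4. Cyp2b9 and Cyp3a11 had the highest rho, 0.810 (exact permutation test, p = 0.0218, adjusted 0.327), with r = 0.447 (p = 0.156, adjusted 0.778) and r = 0.627 without the 2 farthest mice. Cyp2b9 and Cyp2b10 lie on chromosome 7 with Cyp2b13 between them. Across the mice, Cyp2b9 and Cyp2b10 gave r = −0.06 (exact permutation test, p = 0.895, adjusted 0.959) and rho = −0.26 (p = 0.536, adjusted 0.805).

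Among 867 probe sets of other genes that varied between mice (mean of at least 8, SD of at least 0.2), those most like each of 3 genes over the 8 mice were picked by Pearson's r, as a description. The 3 most like Cyp2b9 were Pparg (r = 0.874), a nuclear receptor of fat storage, Arrdc3 (0.861) and Nceh1 (0.852). These fell to 0.221, 0.455 and 0.128 without the 2 mice farthest from the median for Cyp2b9. The 3 most like Cyp2b10 were Ppp1r3f (0.948), a regulatory subunit of a protein phosphatase, Jun (0.892), an immediate early transcription factor, and Serpina4-ps1 (0.878), and they held at 0.866, 0.897 and 0.854 without the 2 farthest mice. The 3 most like Nr1i3 were Albfm1 (0.943), Cpox (0.925), an enzyme of heme synthesis, and 9130409I23Rik (0.917), at 0.907, 0.858 and 0.930 without the 2 farthest mice. Cpox ranked the 8 mice in the same order as Nr1i3 (rho = 1).

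The wider CAR and PXR pathway was read from 94 listed genes, of which 79 had a probe set. On the brightest probe set of each gene, 3 of the 79 were called higher in PD mice and 3 lower, against 0.286% and 0.357% of all 18193 genes. These genes and those of the sex-biased lists were chosen with earlier results of these data known. Their shares of calls beside those of all genes are therefore a description and not a test. The median log2 difference over the 79 was −0.03, beside −0.01 over all genes, with 32 genes higher and 47 lower in PD mice. The genes called do not share one role, and several answer to regulators other than CAR and PXR.

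Of 17 receptor partners and regulators, 1 was called, lower in PD mice. It was Nr0b2, a repressor of other nuclear receptors, with 9.97, 9.86, 10.04 and 10.28 in PD mice and 11.00, 10.68, 10.29 and 10.01 in CD mice. The 2 highest PD mice lay within the range of the CD mice. Its difference was −0.46 (FDR 0.0328; limma 95% interval −0.86 to −0.06), and the call was lost without CD replicate 1 (−0.29), CD replicate 2 (−0.39) or CD replicate 3 (−0.52). Rxra, the partner of both receptors, gave −0.07 (limma 95% interval −0.20 to 0.05), and Hnf4a, a receptor needed for hepatocyte gene expression, gave −0.11 (−0.27 to 0.04), neither called.

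Of 14 other P450 genes, 13 of the CYP2 and CYP3 families and Cyp1a2, 0 were called in either direction, and their differences lay between −0.21 and 0.06. Cyp2c29, a CYP2C inducible through CAR in mice, gave 0.06 (limma 95% interval −0.06 to 0.19). Cyp3a13 was chosen after its values were seen, as the only 1 of the 14 whose groups did not overlap, with 11.26, 11.16, 11.12 and 11.23 in PD mice and 11.41, 11.30, 11.40 and 11.49 in CD mice. Its difference of −0.21 had a 95% interval of −0.33 to −0.09 in limma (p = 0.00305 before and 0.998 after adjustment; exact permutation test, p = 0.0286, the smallest possible for 4 against 4 mice), and the rank product did not call it (FDR 0.465).

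Of 6 genes of electron transfer to P450 enzymes and of heme supply, Alas1, the first enzyme of heme synthesis, was called lower in PD mice. It had 9.34, 11.74, 10.93 and 11.18 in PD mice, against 11.10, 12.11, 10.71 and 11.20 in CD mice. PD replicate 1 lay far below all other mice, and the other 3 PD mice fell within the range of the CD mice. The difference was −0.48 (FDR 0.0633; limma 95% interval −1.47 to 0.50) and was 0.00 without PD replicate 1 (FDR 0.779). The call was also lost without any 1 of the 4 CD mice (−0.21 without CD replicate 2), while leaving out PD replicate 2 gave −0.80. Cyb5a, which also passes electrons to P450 enzymes, gave 0.00 (limma 95% interval −0.09 to 0.10). Among 8 other phase I enzymes 0 were called, 1 was higher and 7 lower, with a median of −0.10, and Ephx1, the microsomal epoxide hydrolase, gave −0.19 (limma 95% interval −0.42 to 0.04).

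Of 19 phase II conjugation enzymes, 1 was called higher and 1 lower, both glutathione S-transferases. Gstm3 had 11.90, 12.44, 11.67 and 12.28 in PD mice and 11.61, 11.95, 11.56 and 11.31 in CD mice on its brighter probe set, a difference of 0.46 (FDR 0.0151), and 0.57 on the other (FDR 0.00391). The range of the PD mice began below the highest CD mouse, and both calls were lost without PD replicate 2 (0.34 and 0.39) or PD replicate 4 (0.39 and 0.49). Gsta2 had 10.75, 10.38, 11.32 and 11.19 in PD mice and 11.65, 12.03, 10.74 and 10.83 in CD mice, a difference of −0.40 (FDR 0.0548), lost without PD replicate 2 (−0.23), CD replicate 1 (−0.29) or CD replicate 2 (−0.16). Transferases of one class are close in sequence, so that their probe sets may share signal. Gstm1, of the same class as Gstm3, gave 0.07 (limma 95% interval −0.13 to 0.26).

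Of 7 transporters 0 were called. Slco1a4, an organic anion uptake transporter of hepatocytes, had 8.26, 8.22, 8.25 and 8.18 in PD mice, against 8.12, 8.04, 7.67 and 7.95 in CD mice. Every PD mouse lay above every CD mouse, and the difference was 0.28 with a 95% interval of 0.10 to 0.47 (limma, p = 0.00614 before and 0.998 after adjustment; exact permutation test, p = 0.0286), while the rank product did not call it (FDR 0.139). Abcc3, an efflux transporter, gave 0.06 (limma 95% interval −0.21 to 0.34). Together with Cyp3a13, Slco1a4 made 2 of the 79 genes whose groups did not overlap, against 2.15% of all genes.

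Of 8 other genes responsive to CAR or PXR, Cyp4a14 and Thrsp were called higher in PD mice, and both also answer to regulators of lipid metabolism. Cyp4a14 is a fatty acid hydroxylase induced through PPAR alpha. It had 8.77, 9.57, 8.48 and 9.42 in PD mice and 8.31, 7.97, 8.59 and 6.95 in CD mice. CD replicate 3 lay above PD replicate 3, so that the groups overlapped. The difference was 1.11 (limma 95% interval 0.37 to 1.85, exact permutation test p = 0.0571), and the call was kept whichever mouse was left out. Thrsp, a protein of fatty acid synthesis, had 11.82, 13.85, 13.63 and 13.15 in PD mice and 12.67, 13.09, 12.74 and 13.06 in CD mice. PD replicate 1 was the lowest mouse and the other 3 PD mice the highest. The difference of 0.22 (FDR 0.0284) was 0.65 without PD replicate 1, and the call was lost without PD replicate 2 (−0.02), PD replicate 3 (0.05) or PD replicate 4 (0.21). These values are from its brightest probe set. A dimmer one was called too (0.29, FDR 0.0136). That call was lost without PD replicate 2 (−0.01) or PD replicate 3 (0.07) and kept without PD replicate 4 (0.29, FDR 0.0485).

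**Figure D4:**
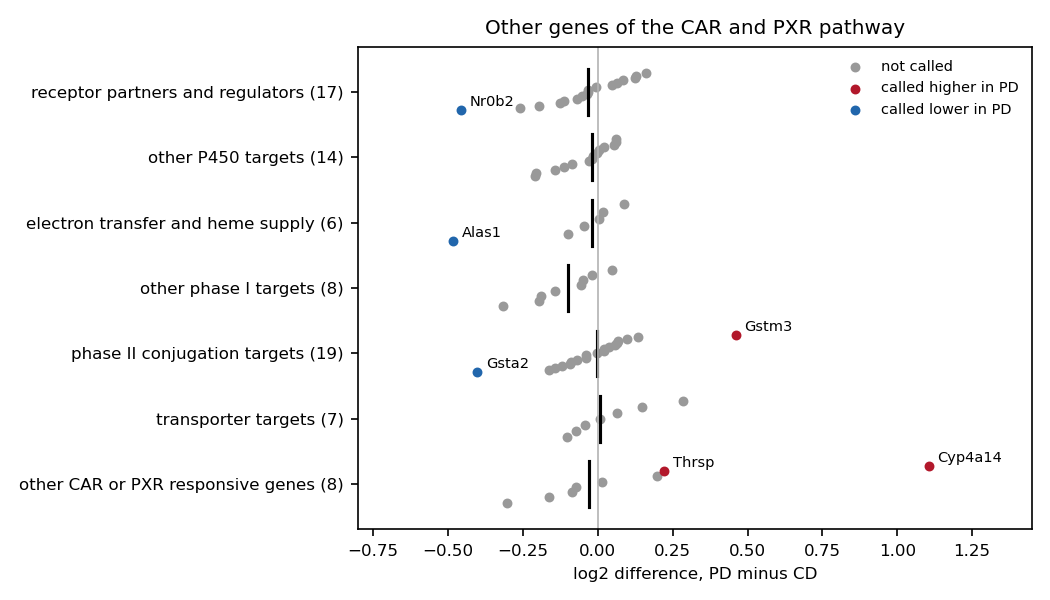
Log2 difference, PD minus CD (x axis), of each of the other CAR and PXR pathway genes (points), by role (rows, number of measured genes in parentheses), with the median of each role as a black line. Genes called higher in PD mice are red, genes called lower are blue and the rest grey. All medians lie between −0.10 and 0.01, and the called genes fall in 4 of the 7 roles.

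CAR and PXR targets are most active in hepatocytes near the central vein. Of 9 pericentral markers, 8 were lower in PD mice and 0 were called, with a median of −0.06 and a mean level per mouse of 10.0 to 10.3 in PD mice and 10.1 to 10.4 in CD mice. Of 8 periportal markers 7 were lower, with a median of −0.05, and 0 were called. In a whole liver, fewer cells of a type and less RNA per cell cannot be told apart, and the part of these markers in the differences above was not tested. Among the other lists of cell type markers, those of cholangiocytes, endothelial cells, Kupffer cells, T and B cells, neutrophils, erythroid cells, pancreas, adipocytes and intestine had 0 genes called, and of 11 markers of stellate cells and fibroblasts 1 was called, Col3a1, higher in PD mice.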

How the data were processed

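Liver RNA of 4 PD and 4 CD mice was hybridised to 8 Affymetrix arrays. The values deposited by the authors are model-based expression indices on the log2 scale, for which the submitters' processing notes name R 2.7.2, and nothing was changed in them. How the arrays were normalized to each other was not given in the sources used here. Without the 64 controls 45037 probe sets remained and were all tested. The platform annotation gave 34945 of them a single gene symbol, 932 more than 1 and 9160 none. Only probe sets with 1 symbol were named.

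The rank product of the study's methods was rebuilt (Python 3.11.15, numpy 2.4.6, pandas 2.3.3, scipy 1.17.1) with all 16 pairings of PD with CD arrays and 1000 permutations, with calls at FDR values below 0.1. limma 3.58.1 in R 4.3.3 gave intervals and adjusted p over all probe sets. The exact permutation tests of differences were two-sided over 70 splits of the mice, with 0.0286 as the smallest p, and over 35 splits without 1 mouse. Those of correlations permuted the pairings, and a correlation passed at an adjusted p under 0.05. Where 1 probe set had to stand for a gene, the one with the highest mean was taken.

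The genes and lists were chosen with earlier results of these data known. Named from the pathway and sex lists were all genes called by the rank product on any probe set and a set of examples, of which Cyp2a5 and Ugt1a1 had no probe set under a single symbol. Cyp3a13, Cyp1a2 and the cell type marker Col3a1 were named outside that rule. The alternatives were an FDR or adjusted p of 0.05, the replicate number as a block, 16 added before taking log2, quantile normalization, leaving out dim probe sets (means under 7 in both groups) or those ending in _s_at or _x_at, a robust limma fit with a variance trend, the methods' t-test, the mean of a gene's probe sets, any probe set of a gene, and leaving out each mouse. Promoter sequences came from RefSeq tables (GRCm38.p6), in which all 7 genes were matched. For Cyp2b9, Cyp2b13, Nr1i3 and Nr1i2 the annotated gene begins inside the 250 bases, and for Por it begins upstream of them. Only bases before the annotated gene were printed.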

Additional observations from a re-analysis of the deposited data

Results flagged for a closer look

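In each diet and probe set, the highest or lowest of the 4 mice was compared with the others by Dixon's test. Of 18 groups tested, 2 held a mouse that stood apart, where chance marks about 1 group in 20. The groups hold the same mice on every probe set and are not independent, so the count is a description. For Cyp2b9, PD replicate 4 was at 9.69 and the next PD mouse at 7.54, a gap of 0.900 of the range of the group. For Cyp2b10 on 1425645_s_at, CD replicate 3 was at 7.00 and the next CD mouse at 7.99, a gap of 0.836 of the range. That mouse was not marked on the other probe sets of Cyp2b10.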

How the results depend on the processing

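Of 123 differences of the 9 probe sets under alternatives with an FDR, 104 kept their direction and their side of the threshold, 7 gained a call, 8 lost one and 4 changed sign. Of 5 means over a gene's probe sets, which have no FDR, 1 changed sign. The sign changes were those of Cyp2b9 without PD replicate 4 (−0.063, leave-one-out range −0.063 to 0.73) and of Nr1i2 on 1451807_at (leave-one-out range −0.13 to 0.073, and 0.060 as the mean of both probe sets). Cyp2b10 on 1422257_s_at lost its call with dim probe sets left out (FDR 0.149) and at an FDR under 0.05, and on 1425645_s_at it was called after quantile normalization (FDR 0.0977) and with 16 added before the log2 (FDR 0.0933). The causes were not tested. Over all probe sets, leaving out each mouse gave 27 to 190 calls higher in PD mice (97 with all mice) and 16 to 207 lower (117), and 0 to 1 calls in limma. The lower calls numbered 74 without dim probe sets and 53 at an FDR under 0.05. The methods' t-test gave 1711 probe sets at an unadjusted p under 0.05 and 0 after Benjamini-Hochberg. Probe sets whose groups did not overlap numbered 937, 566 without dim ones, and 1700 to 2992 without 1 mouse, where fewer mice overlap less easily.

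Of 165 correlations under alternatives 11 changed sign, and 0 passed an adjusted p under 0.05 under any alternative, the lowest being 0.0536 for Cyp2b9 and Cyp2b13 without PD replicate 3. The leave-one-out ranges of r were −0.48 to 0.50 for Nr1i3 and Nr1i2 (−0.19 with the mean of the gene's probe sets), −0.010 to 0.40 for Nr1i3 and Cyp2b13, −0.40 to 0.14 for Nr1i2 and Cyp2b10, −0.77 to 0.42 for Nr1i2 and Cyp3a11, −0.36 to 0.079 for Cyp2b9 and Cyp2b10, and −0.54 to 0.36 for Cyp2b10 and Cyp3a11. The replicate numbers did not pair the mice (same-number correlations −0.06 to −0.00, with 0 of 8 arrays most like their own number). With the replicate number as a block, 109 probe sets were called higher, 103 lower and 0 by limma, and Cyp2b10 on 1425645_s_at was called (−0.25, FDR 0.0638). The number of arrays and the lack of detection calls limit what can be said of dim probe sets such as that of Cyp2b13.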
